A study of Homo sapiens with 32 samples.

Results

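Kinesins are the microtubule motor family examined here, in wild-type RPE-1, a human cell line immortalised from the pigment epithelium of the retina. The members were the genes of the deposited count table whose symbol is KIF or KIFC followed by a number and at most a letter from A to C, which gave 41 of 19023 genes. Of these, 14 were grouped as mitotic kinesins, 15 as interphase transport kinesins and 12 as other kinesins, by their textbook roles. Every group had been without serum for 18 h. The 4 groups were the starved cells (0 h) and cells given serum for 5, 10 or 15 h. At each time 4 biological replicates gave RNA-seq libraries (total RNA after removal of ribosomal RNA) and 4 gave Ribo-seq libraries of ribosome-protected footprints, which made 32 libraries. No library used here is of cells still starved at a later time, so an effect of serum and an effect of time cannot be told apart. Of 10 pigment epithelium markers, RPE65, TYR and DCT had 1, 2 and 1 RNA counts over all 16 libraries, whereas the transcription factors MITF and OTX2 had 359 and 108 and the receptor MERTK 91. Of 4 general epithelial markers, the keratins KRT8 and KRT18 averaged 605 and 787 CPM at 0 h, and CDH1 and EPCAM had 2 RNA counts each. CPM, the unit of levels here, are counts scaled to a common library total.

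Kinesins use ATP to walk along microtubules or to take them apart at their ends. Mitotic kinesins build the spindle, move chromosomes and organise the central spindle for cytokinesis, and many of their genes are transcribed mainly in the G2 and M phases of the cell cycle. Transport kinesins carry vesicles, organelles and ciliary cargo in cells that need not be dividing. RPE-1 cells without serum leave the cell cycle and many form a primary cilium, and serum brings them back into the cycle.

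Many genes of late cell cycle phases have promoters with a cell cycle genes homology region (CHR, TTTGAA or TTCGAA) at a short distance from a CCAAT box. Both were searched on both strands in the 250 bases before each RefSeq transcription start (GRCh38.p14), together with the E2F strings TTTCCCGC and TTTGGCGC. A promoter was listed for 33 of the 41 kinesins. A CHR string was found in 6 of 14 mitotic promoters (42.9%), in 1 of 11 transport promoters and in 0 of 8 other kinesin promoters, against 17.2% of the 27305 genes with a promoter entry. CCAAT was found in 11 mitotic (78.6%), 4 transport (36.4%) and 3 other promoters (37.5%), against 37% of all. Both strings were found in 5 mitotic promoters (35.7%) and in 1 transport promoter, that of KIF5B, against 6.24% of all. An E2F string stood in 1 mitotic promoter, that of KIF15 (7.14%), in 0 transport promoters and in 1 other promoter, that of KIF25 (12.5%), against 2.36% of all. A match describes letters only, and no binding was measured.

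The 100 bases before the start are printed for 8 mitotic kinesins, 5′ to 3′ on the gene's strand, to show how the strings are placed: the 6 with a CHR string, and KIF20A and KIF18B as examples with CCAAT boxes alone. KIF2C had none of the strings. Capitals mark a CHR string, a CCAAT box or an E2F string, also where it stands as its reverse complement on the other strand. KIF11 (chr10:92593030-92593129, plus strand), KIF18A (chr11:28108157-28108256, minus strand), KIF22 (chr16:29790651-29790750, plus strand, the upstream of 2 RefSeq starts), KIF23 (chr15:69414249-69414348, plus strand) and KIF4A (chrX:70290004-70290103, plus strand) have both a CHR string and a CCAAT box. KIF15 (chr3:44761694-44761793, plus strand) has an E2F string that runs directly into a CHR string. KIF20A (chr5:138179012-138179111, plus strand) and KIF18B (chr17:44947774-44947873, minus strand) have 2 CCAAT boxes and no CHR string of these letters.
KIF11: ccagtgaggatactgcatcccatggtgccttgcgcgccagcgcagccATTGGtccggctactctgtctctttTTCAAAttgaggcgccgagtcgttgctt
KIF18A: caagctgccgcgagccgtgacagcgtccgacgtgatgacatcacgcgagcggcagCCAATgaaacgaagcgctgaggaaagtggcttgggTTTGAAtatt
KIF22: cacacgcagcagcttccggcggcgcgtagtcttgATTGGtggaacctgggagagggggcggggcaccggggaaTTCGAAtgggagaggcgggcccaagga
KIF23: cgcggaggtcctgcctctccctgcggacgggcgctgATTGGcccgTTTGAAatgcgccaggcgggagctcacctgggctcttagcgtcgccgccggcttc
KIF4A: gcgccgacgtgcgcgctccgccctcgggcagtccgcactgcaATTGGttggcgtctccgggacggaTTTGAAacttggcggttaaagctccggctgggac
KIF15: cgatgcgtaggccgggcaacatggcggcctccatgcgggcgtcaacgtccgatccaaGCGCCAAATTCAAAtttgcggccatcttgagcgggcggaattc
KIF20A: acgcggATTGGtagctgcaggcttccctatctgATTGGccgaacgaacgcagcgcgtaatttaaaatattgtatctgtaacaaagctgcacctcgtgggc
KIF18B: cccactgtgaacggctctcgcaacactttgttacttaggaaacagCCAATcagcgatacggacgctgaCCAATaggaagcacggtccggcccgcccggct
In the 6 mitotic promoters with a CHR string, its last base lay between 5 and 50 bases before the start, apart from the second listed start of KIF22. In KIF5B, the transport promoter with both strings, the CHR string ended 135 bases and the CCAAT box 55 bases before the start.

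A library held 595851 to 1107470 counts in RNA-seq and 2851423 to 9901322 in footprints, but not every member had more footprint than RNA counts (KIFC2 had 200 and 230). RNA values of a group correlated at 0.9061 or more between replicates and footprint values at 0.9865 or more. All values are relative to the other genes of a library. Of 6 blood markers, 3 had no RNA count and 5 had 3 or fewer in all. Of 4 neuron markers 1 had 3 or fewer, TUBB3 had 270 and SNAP25 38, and their summed RNA CPM went from 13.3 to 20.2 at 0 h to 27.6 to 41.2 at 5 h and 10.3 to 17.7 at 15 h. The summed CPM of 10 pigment epithelium markers moved with time, from 76.3 to 85.8 in the RNA libraries at 0 h to 23.8 to 40 at 5 h, and the part of either list in the kinesin results was not tested. In bulk samples, fewer cells of a type and less RNA per cell cannot be told apart, and this holds for cells in a given phase of the cycle too.

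The pooled kinesin counts changed composition over the time course. The shares add up raw counts, so genes with many counts weigh most. At 0 h KIF20A led the mitotic kinesins with 892 RNA and 3411 footprint counts, ahead of KIF22 in RNA (396) and KIF11 in footprints (1839). KIF1C led the transport kinesins in RNA at 0 h with 1773 counts, ahead of KIF5B (416). Mitotic kinesins made up 40.6 ± 4.22% of kinesin RNA counts in starved cells (mean ± SD, n = 4 here and below), 15.01 ± 2.95% after 5 h of serum, 44.05 ± 5.26% after 10 h and 67.6 ± 3.34% after 15 h. In footprints the same share was 43.7 ± 2.58%, 10.5 ± 1.23%, 60.2 ± 1.58% and 78.9 ± 0.541%. At 5 h no library of either assay came near the shares of 0 h: the highest was 18.8% in RNA and 11.97% in footprints, against a lowest of 35.3% and 40.1% at 0 h. All kinesins together held 0.213 ± 0.00657% of RNA counts at 0 h, 0.150 ± 0.0118% at 5 h and 0.436 ± 0.0201% at 15 h, and 0.141 ± 0.00724%, 0.0817 ± 0.00105% and 0.386 ± 0.0249% of footprint counts. Among the RNA libraries, replicate 2 had the lowest mitotic share at each of the 4 times.

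**Figure D1:**
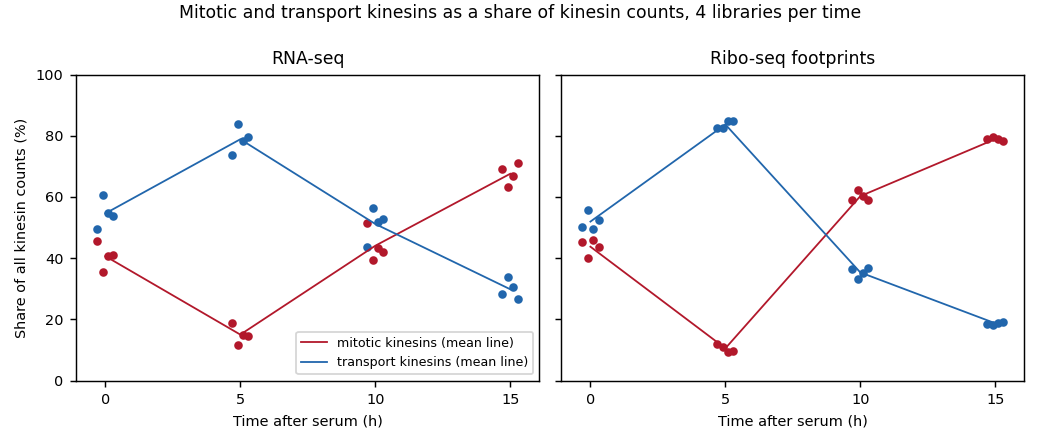
Share of all kinesin counts (%) that fell on mitotic (red) and transport (blue) kinesins, by hours after serum, in RNA-seq (left) and footprints (right). Each point is a library (n = 4 per time) and lines join the means; the mitotic share was lowest at 5 h and highest at 15 h in both assays.

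The filter on low counts left 11 mitotic kinesins in RNA and 12 in footprints. Most of them were lower after 5 h of serum: in RNA 0 rose and 8 of 11 fell, and in footprints all 12 tested fell. The background for these counts was that 16.7% of 8775 genes fell in RNA and 40.5% of 10959 fell in footprints. The median mitotic log2 change was -1.43 in RNA and -2.41 in footprints, beside -0.03 and -0.07 over all genes tested. The 3 that did not pass in RNA at 5 h were KIF14, KIF20B and KIF18A. At 10 h the group had turned: 7 of 11 were above 0 h in RNA (background 23.3% higher) and 11 of 12 in footprints (39.4% higher), and KIF20A alone was below it in both assays (21.5% and 39% of genes lower). At 15 h, 10 of 11 were higher than in starved cells in RNA (25.4% of genes higher) and 12 of 12 in footprints (40.1%), with medians of 2.32 and 2.91.

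Between successive times the rise was as uniform. From 5 h to 10 h, 10 of 11 rose in RNA and 0 fell (10.1% of genes rose and 9.56% fell) and 12 of 12 rose in footprints (31%), with KIF14 missing the threshold in RNA (log2 change 0.88 ± 0.32, edgeR adjusted p = 0.0557). From 10 h to 15 h, 10 of 11 rose in RNA and 0 fell (3.81% and 2.11% of genes) and 12 of 12 in footprints (20.8%), with KIF18A missing it in RNA (0.98 ± 0.34, adjusted p = 0.105, edgeR). Every tested mitotic kinesin had its lowest mean at 5 h in both assays, and every one had its highest mean at 15 h except KIF20A in RNA. How many of all genes had these times of lowest and highest mean was not counted. The comparisons with 0 h share the 4 starved libraries of an assay, so they are not independent of each other.

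**Figure D2:**
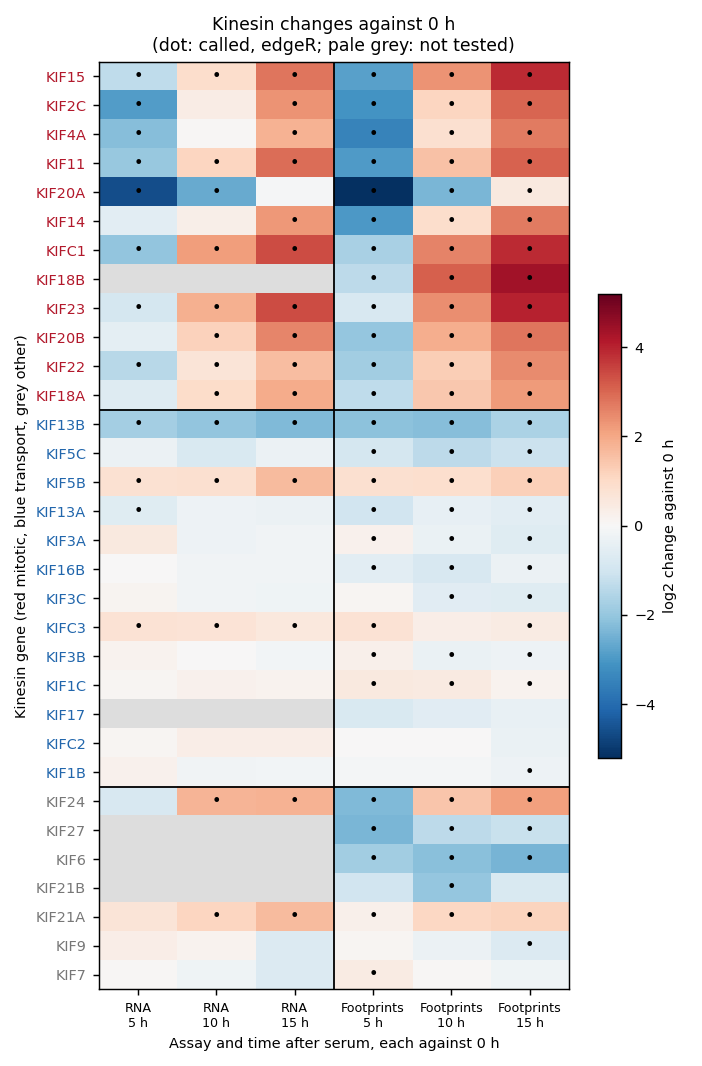
Log2 change of each tested kinesin (rows, grouped as mitotic in red, transport in blue and other in grey) at 5, 10 and 15 h against 0 h in RNA and footprints. Colour gives the log2 change, a dot marks an edgeR adjusted p under 0.05 and pale grey marks members not tested in RNA; mitotic rows turn from blue at 5 h to red at 15 h, except KIF20A in RNA (-0.08 at 15 h), and transport rows are paler, with KIF13B, KIF5B, KIF5C and KIF13A the furthest from 0.

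The motors that set up a bipolar spindle showed this pattern in both assays. KIF11, the kinesin-5 that slides antiparallel spindle microtubules apart, had 105, 51.9, 50.5 and 58.3 CPM before serum, 17.2, 14.04, 20.02 and 17.3 after 5 h, 226, 93.2, 125 and 134 after 10 h, and 561, 429.8, 427 and 594 after 15 h in RNA. Its footprints were 94.1, 84.1, 101 and 85.8 CPM before serum, 13.8, 13.1, 9.86 and 10.7 after 5 h, 253, 291, 256 and 234 after 10 h, and 721, 826, 768 and 736 after 15 h. The 15 h libraries stood above all others in both assays, the 5 h libraries below all others, and RNA replicate 1 was high at 0 h and 10 h. KIF11 fell 7.71-fold in footprints by 5 h (log2 change -2.95 ± 0.10) and stood 8.37-fold above starved cells at 15 h (3.06 ± 0.07).

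KIF15, a kinesin-12 that helps KIF11 keep the spindle bipolar, had RNA values of 31.5, 19.1, 17.3 and 31.4 CPM before serum, 12.1, 11.03, 7.07 and 9.74 after 5 h, 60.4, 25.9, 49.95 and 51.3 after 10 h, and 216, 127, 165 and 183 after 15 h. In footprints it had 9.47, 8.71, 8.13 and 9.91 CPM before serum, 1.58, 0.994, 1.13 and 1.27 after 5 h, 44.2, 53.7, 44.97 and 40.3 after 10 h, and 119, 161, 125 and 131 after 15 h. Its footprints at 5 h rested on 36 counts over 4 libraries, yet none of these libraries overlapped those of any other time. From 5 h to 10 h its footprints rose 36.1-fold (log2 change 5.17 ± 0.18, edgeR adjusted p = 8.9e-22), the largest such rise of the family, beside 4.68-fold in RNA (2.23 ± 0.31). The difference between the assays from 5 h to 10 h was not tested.

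KIFC1, a minus-end-directed kinesin-14 that focuses spindle poles, measured 13.3, 25.4, 31.8 and 14.9 CPM before serum, 5.17, 4.01, 5.89 and 5.41 after 5 h, 77.8, 126, 92.1 and 92.8 after 10 h, and 215, 261, 214 and 211 after 15 h in RNA. Footprint values were 17.2, 13.2, 20.7 and 18.03 CPM before serum, 6.20, 6.79, 3.66 and 5.07 after 5 h, 99.5, 112, 103 and 101 after 10 h, and 256, 266, 246 and 255 after 15 h. The groups of the 4 times did not overlap in either assay. At 10 h KIFC1 was 4.53-fold above starved cells in RNA (log2 change 2.18 ± 0.22) and 5.96-fold in footprints (2.58 ± 0.09). It shared a rise by 10 h with most mitotic kinesins, 7 of 11 in RNA and 11 of 12 in footprints. Its RNA rise was the largest of these, and in footprints KIF18B rose further (3.11).

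Motors that act on chromosomes and on microtubule ends followed. KIF2C, a kinesin-13 that removes tubulin from microtubule ends at kinetochores, had 66.6, 54.02, 92.4 and 67.3 CPM before serum, 13.8, 6.02, 8.24 and 9.74 after 5 h, 109.6, 87.5, 93.7 and 72.96 after 10 h, and 309.9, 305, 369 and 407 after 15 h in RNA. In footprints the values were 32.2, 28.04, 37.4 and 32.97 CPM before serum, 5.14, 3.15, 2.82 and 3.93 after 5 h, 67.1, 75.7, 73.8 and 71.4 after 10 h, and 244, 297, 271 and 266 after 15 h. At 10 h its RNA libraries overlapped those of 0 h (0.38 ± 0.19, edgeR adjusted p = 0.105), whereas its footprints did not and were higher (1.13 ± 0.08).

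KIF4A, a chromokinesin that also shapes the central spindle, had RNA values of 43.6, 59.3, 56.3 and 59.8 CPM before serum, 13.8, 10.03, 11.8 and 11.9 after 5 h, 71.7, 43.2, 56.2 and 56.8 after 10 h, and 184, 204, 186 and 185 after 15 h. Its footprint values were 31.4, 23.4, 31.5 and 32.6 CPM before serum, 2.37, 2.65, 3.10 and 2.54 after 5 h, 53.1, 59.8, 53.1 and 47.5 after 10 h, and 194, 204, 191 and 198 after 15 h. Here too RNA at 10 h overlapped RNA at 0 h (0.06 ± 0.17, adjusted p = 0.811, edgeR) while footprints had risen (0.84 ± 0.08). KIF4B, a near-identical copy, had 92 RNA and 103 footprint counts in all and was not tested, and the labels do not say how reads shared by the copies were assigned.

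KIF22, the chromokinesin that pushes chromosome arms towards the spindle equator, had 131, 91.1, 172 and 124 CPM before serum, 43.1, 52.1, 47.1 and 47.6 after 5 h, 215, 228, 192 and 181 after 10 h, and 347, 378, 431 and 405 after 15 h in RNA. Footprints were 44.1, 32.1, 39.3 and 34.6 CPM before serum, 11.9, 9.94, 10.1 and 9.89 after 5 h, 88.5, 95.7, 92.9 and 80.7 after 10 h, and 200.1, 204, 203 and 201 after 15 h. It showed the smallest rise of RNA from 10 h to 15 h among the mitotic kinesins, 0.93 ± 0.15 on the log2 scale. KIF18A, which damps chromosome movements at metaphase, averaged 37.8 ± 8.07 CPM in RNA before serum, then 24.3 ± 10.0 after 5 h, 73.3 ± 35.5 after 10 h and 145 ± 54.6 after 15 h. Its RNA call at 10 h against 0 h (0.95 ± 0.38, edgeR adjusted p = 0.0489) ended without the filter on low counts (adjusted p = 0.0653) and when any of 6 of the 8 libraries was left out (highest adjusted p = 0.165). In footprints KIF18A fell at 5 h (-1.34 ± 0.12) and rose by 15 h (2.21 ± 0.09). KIF18B, which controls the length of astral microtubules, had 6, 7, 33 and 56 RNA counts at the 4 times and was tested in footprints alone. Its footprints averaged 3.36 ± 1.52 CPM before serum, then 1.27 ± 0.999 after 5 h, 27.2 ± 0.689 after 10 h and 66.5 ± 7.17 after 15 h, and the 20.9-fold rise over starved cells at 15 h was the largest of the family (4.38 ± 0.18).

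Among the cytokinesis motors KIF20A stood apart in starved cells. KIF20A, which carries the chromosomal passenger complex to the central spindle, had 304, 261, 329 and 249.6 CPM before serum, 8.63, 14.04, 10.6 and 11.9 after 5 h, 57.4, 40.4, 43.7 and 44.1 after 10 h, and 260.5, 206, 288 and 327 after 15 h in RNA. Its footprints were 168, 143, 182 and 178 CPM before serum, 7.52, 3.98, 3.52 and 3.55 after 5 h, 29.2, 34.2, 36.3 and 28.99 after 10 h, and 226, 292, 228 and 211 after 15 h. Starved cells and 15 h cells overlapped in RNA, and KIF20A was the 1 tested mitotic kinesin whose RNA at 15 h had not passed its starved level (log2 change -0.08 ± 0.15, edgeR adjusted p = 0.681). In footprints the 15 h libraries lay above all 0 h libraries, by 1.42-fold (0.51 ± 0.12). Per kilobase of coding sequence, KIF20A was the highest mitotic kinesin in starved cells at 109 CPM in RNA and 64.2 in footprints, and at 5 h its level had dropped to 4.32 and 1.78.

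KIF23, the motor subunit of centralspindlin, had RNA values of 59.4, 31.8, 34.6 and 37.4 CPM before serum, 34.5, 16.04, 18.8 and 20.6 after 5 h, 216, 129.7, 108 and 137 after 10 h, and 506, 389, 377 and 468 after 15 h. Footprint values were 41.1, 20.6, 42.5 and 29.9 CPM before serum, 18.99, 18.9, 20.01 and 17.4 after 5 h, 173, 203, 183 and 159 after 10 h, and 509, 577, 519.5 and 526 after 15 h. It fell least of the tested mitotic kinesins in footprints at 5 h (-0.83 ± 0.19) and stood 15.99-fold above starved cells at 15 h (3.999 ± 0.14). Its RNA call at 5 h (-0.92 ± 0.29, edgeR adjusted p = 0.0166) ended without replicate 1 of 0 h (log2 change -0.72) and without replicate 3 of 5 h (-0.83).

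KIF14, which binds citron kinase and PRC1 at the midbody, had 23.01, 26.5, 21.7 and 23.9 CPM before serum, 15.5, 14.04, 18.8 and 16.2 after 5 h, 46.1, 18.3, 14.1 and 37.8 after 10 h, and 152, 103, 81.3 and 116 after 15 h in RNA. Its footprints were 21.01, 18.3, 24.4 and 21.3 CPM before serum, 2.77, 1.82, 2.82 and 3.17 after 5 h, 38.1, 47.1, 40.0 and 32.6 after 10 h, and 132, 158, 142 and 129 after 15 h. The 5 h RNA libraries lay below those of 0 h without overlap, but the change missed the threshold (-0.56 ± 0.34, edgeR adjusted p = 0.208), while footprints fell 7.91-fold (-2.98 ± 0.18). KIF20B, which acts late in cytokinesis, had RNA values of 69.04, 48.7, 33.2 and 91.2 CPM before serum, 53.5, 36.1, 44.7 and 36.8 after 5 h, 224, 70.2, 117 and 141 after 10 h, and 437, 242, 320.2 and 414 after 15 h. In footprints it had 50.9, 46.3, 55.7 and 48.4 CPM before serum, 13.4, 16.7, 10.4 and 10.5 after 5 h, 183, 207, 180.2 and 176 after 10 h, and 315, 410.1, 333 and 331 after 15 h. RNA at 5 h overlapped RNA at 0 h (-0.52 ± 0.35, adjusted p = 0.272, edgeR), and footprints fell 3.99-fold (-1.996 ± 0.14).

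**Figure D3:**
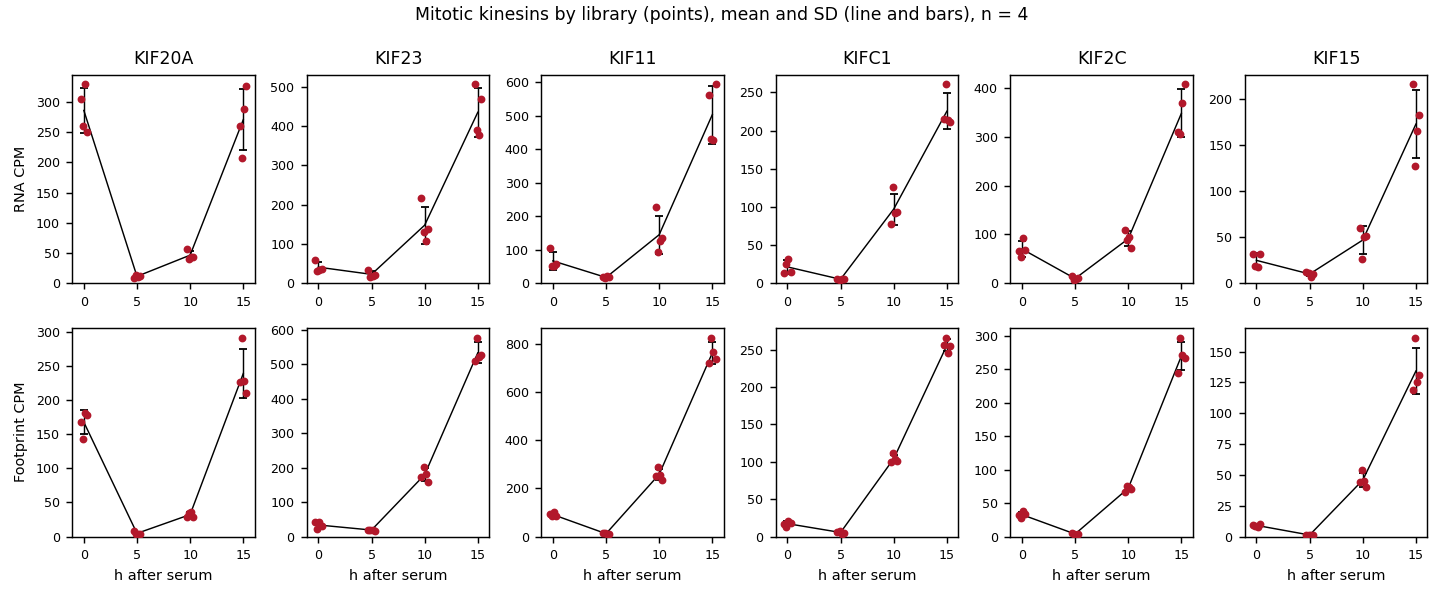
CPM of 6 mitotic kinesins by hours after serum in RNA (top) and footprints (bottom). Points are libraries, lines join the means of 4 libraries and bars are SD; KIF20A falls from its starved level and returns to it in RNA and above it in footprints, whereas the other 5 start low and end well above it.

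Transport kinesins moved far less and in both directions. In RNA at 5 h, 2 of 12 rose (KIF5B and KIFC3; 19.2% of all genes rose), 2 fell (KIF13A and KIF13B; 16.7%) and the median was 0.13. At 10 h and at 15 h, KIF5B and KIFC3 were higher and KIF13B lower than in starved cells, 3 of 12 at each time, where 44.8% and 50.9% of all genes passed. From 5 h to 10 h 0 of 12 passed by edgeR, where 19.7% of all genes did, 0 passed by DESeq2 and 2 had an unadjusted p under 0.05. KIF5B passed from 10 h to 15 h, 1 of 12 beside 5.91% of genes. In footprints, which had more counts, 5 of 13 rose and 4 fell at 5 h (35.2% and 40.5% of genes), 2 rose and 7 fell at 10 h (39.4% and 39%), and 3 rose and 8 fell at 15 h (40.1% and 39.6%). Over both directions these were 9, 9 and 11 of 13, where 75.7%, 78.4% and 79.7% of all genes passed. Footprint medians were 0.03, -0.36 and -0.33 at the 3 times. From 5 h to 10 h footprints of 1 rose and 6 fell (31% and 30.7% of genes, 61.7% in all), and from 10 h to 15 h 3 rose and 3 fell (20.8% and 20.2%).

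Kinesin-1 is the main motor for cytoplasmic cargo, and its heavy chains moved apart. KIF5B, the ubiquitous heavy chain, had 140.5, 150.4, 101 and 132 CPM before serum, 164, 182, 294 and 266 after 5 h, 328, 152, 195 and 264 after 10 h, and 487, 389.7, 333 and 422 after 15 h in RNA. Its footprints were 216, 193, 206 and 192 CPM before serum, 335, 375, 369 and 338 after 5 h, 376, 377, 369.5 and 364 after 10 h, and 435, 518, 472 and 487 after 15 h. It rose 3.11-fold in RNA by 15 h (log2 change 1.64 ± 0.22) and 2.38-fold in footprints (1.25 ± 0.06), with no overlap of the 15 h and 0 h libraries. Its RNA rise from 10 h to 15 h (0.80 ± 0.21, edgeR adjusted p = 0.0272) was no longer called, leaving 0 of 12, without replicate 2 or 3 of 10 h (0.67 and 0.72) or replicate 1 or 4 of 15 h (0.74 and 0.82). KIF5C, a heavy chain best known from neurons, had 15.8, 12.7, 14.4 and 22.4 CPM before serum, 12.1, 14.04, 9.42 and 16.2 after 5 h, 10.2, 9.61, 1.56 and 12.6 after 10 h, and 15.8, 10.3, 11.6 and 14.6 after 15 h in RNA, on 50 or fewer counts a group. In footprints it had 25.4, 26.1, 28.3 and 33.6 CPM before serum, 16.5, 13.9, 14.1 and 15.6 after 5 h, 12.3, 9.19, 12.4 and 11.3 after 10 h, and 10.3, 13.03, 15.2 and 12.8 after 15 h. KIF5C did not pass in RNA at any time, and its footprints fell at 5 h (-0.93 ± 0.11), 10 h (-1.35 ± 0.11) and 15 h (-1.13 ± 0.11), with all 12 later libraries below the 4 starved ones. The neuronal KIF5A had 16 RNA and 8 footprint counts in all and was not tested.

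Kinesin-2 motors drive intraflagellar transport and carry other cargo, and footprints of KIF3A and KIF3B among them first rose and later fell. KIF3A footprints averaged 54.5 ± 0.670 CPM before serum, then 63.9 ± 7.04 after 5 h, 42.5 ± 1.93 after 10 h and 35.3 ± 1.85 after 15 h. They rose at 5 h (0.23 ± 0.07) and were below starved cells at 15 h (-0.62 ± 0.07). KIF3B, its partner in the heterodimer, rose by 0.28 ± 0.08 at 5 h and was lower by 10 h (-0.36 ± 0.09) and 15 h (-0.26 ± 0.09). KIF3C, which can replace KIF3B, did not pass at 5 h (0.09 ± 0.11, edgeR adjusted p = 0.472) and was lower at 10 h (-0.58 ± 0.12) and 15 h (-0.62 ± 0.12). In RNA none of these 3 passed against 0 h at any time. KIF17, a homodimeric kinesin-2, was tested in footprints alone, at 0.803 to 1.32 CPM on average, and passed in none of the comparisons.

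Kinesin-3 motors carry endosomes and vesicles and shared no direction. KIF13B had 38.8, 62.5, 63.5 and 56.8 CPM before serum, 10.3, 16.04, 17.7 and 18.4 after 5 h, 10.2, 14.4, 12.5 and 15.3 after 10 h, and 9.45, 13.1, 10.3 and 11.5 after 15 h in RNA. Its footprints were 55.03, 64.4, 61.5 and 62.04 CPM before serum, 16.1, 10.8, 15.2 and 13.6 after 5 h, 14.03, 14.6, 12.7 and 10.8 after 10 h, and 15.4, 22.1, 19.3 and 19.9 after 15 h. All 12 libraries with serum lay below the 4 starved ones in each assay, and KIF13B had fallen 4.35-fold in footprints by 5 h (-2.12 ± 0.10) and 4.91-fold in RNA by 15 h (-2.30 ± 0.24). Its footprints rose again between 10 h and 15 h (0.58 ± 0.11). KIF13A, its close relative, fell at 5 h in RNA (-0.62 ± 0.16) and in footprints (-1.01 ± 0.07), and its footprints had partly risen by 10 h (0.58 ± 0.07).

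KIF16B, a motor of early endosomes, had 37.5, 36.01, 36.1 and 32.9 CPM before serum, 32.8, 43.1, 34.1 and 33.5 after 5 h, 37.9, 22.1, 34.3 and 32.4 after 10 h, and 25.2, 40.2, 21.9 and 35.4 after 15 h in RNA. Its footprint values were 31.1, 29.7, 28.3 and 35.2 CPM before serum, 23.3, 20.4, 20.9 and 19.9 after 5 h, 18.6, 17.3, 18.4 and 14.8 after 10 h, and 25.3, 26.7, 22.6 and 25.1 after 15 h. RNA libraries of all times overlapped, and footprints were lowest at 10 h (-0.84 ± 0.10). KIF1B footprints were lower at 15 h (-0.28 ± 0.07) and did not pass at 5 h or 10 h. KIF1C footprints were higher at 5 h (0.52 ± 0.07) and 10 h (0.45 ± 0.07). Its call at 15 h (0.17 ± 0.07, edgeR adjusted p = 0.0312) ended under DESeq2, in a fit of these groups alone and without any of 4 libraries, with log2 changes down to 0.14. Neither KIF1B nor KIF1C passed in RNA. KIF1A had 45 RNA and 34 footprint counts in all and was not tested.

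Of the C-terminal motors grouped with transport, KIFC3 rose at 5 h in RNA (0.75 ± 0.22) and in footprints (0.75 ± 0.17). The deposited length of KIFC3 is 340 bases, and whether its counts cover the whole coding sequence was not tested. The RNA call ended without replicate 4 of 0 h (0.63) or replicate 2 of 5 h (0.52). Its calls at 15 h, 0.54 ± 0.22 in RNA and 0.42 ± 0.18 in footprints, ended under DESeq2, the footprint call also in a fit of these groups alone, and they ended without 3 and 6 of the 8 libraries, with log2 changes down to 0.49 and 0.34. KIFC2 did not pass in any comparison, on 38 to 68 counts a group.

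**Figure D4:**
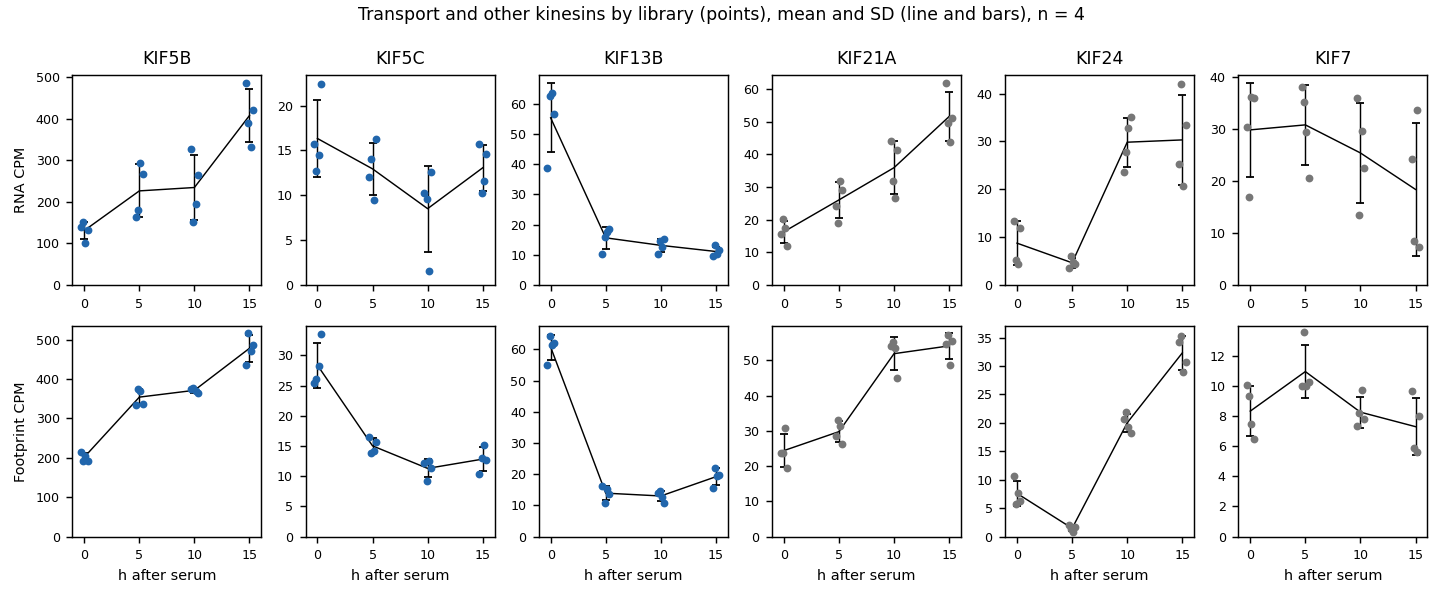
CPM of 3 transport kinesins (blue) and 3 other kinesins (grey) by hours after serum in RNA (top) and footprints (bottom). Points are libraries, lines join the means of 4 libraries and bars are SD; KIF5B and KIF21A climb, KIF13B drops by 5 h, KIF5C drops in footprints and KIF24 is lowest at 5 h.

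Several of the other kinesins belong to cilia and centrioles. KIF24, a kinesin-13 that works at the mother centriole to keep cilia from forming, had 13.3, 5.30, 4.33 and 11.96 CPM before serum, 3.45, 6.02, 4.71 and 4.33 after 5 h, 23.6, 27.9, 32.8 and 35.1 after 10 h, and 25.2, 42.05, 20.7 and 33.3 after 15 h in RNA, on 16 to 117 counts a group. In footprints it had 10.7, 5.74, 7.62 and 6.33 CPM before serum, 1.98, 1.32, 0.845 and 1.65 after 5 h, 20.7, 21.8, 19.2 and 18.2 after 10 h, and 34.3, 35.3, 28.9 and 30.8 after 15 h. It was the 1 kinesin outside the mitotic group with its lowest footprint mean at 5 h (-2.30 ± 0.24) and its highest at 15 h (2.13 ± 0.13), and none of these 3 groups overlapped. KIF7, which regulates Hedgehog signalling at the cilium tip, had 30.3, 16.9, 36.1 and 35.9 CPM before serum, 37.95, 35.1, 29.4 and 20.6 after 5 h, 35.8, 13.4, 29.7 and 22.5 after 10 h, and 24.2, 8.41, 33.6 and 7.29 after 15 h in RNA. Its footprints were 10.1, 9.35, 7.45 and 6.50 CPM before serum, 10.02, 13.6, 10.0 and 10.3 after 5 h, 7.33, 8.23, 9.73 and 7.79 after 10 h, and 9.66, 5.92, 5.64 and 8.002 after 15 h. RNA of KIF7 did not pass at any time, with replicates of 15 h spread over 7.29 to 33.6 CPM. Its footprint rise at 5 h (0.43 ± 0.16, edgeR adjusted p = 0.0167) ended without replicate 3 (0.39) or 4 of 0 h (0.32) or replicate 2 of 5 h (0.32).

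KIF27, a relative of KIF7, was tested in footprints alone and averaged 5.18 ± 1.19 CPM at 0 h and 1.004 ± 0.392 at 5 h, a fall of -2.36 ± 0.27, and stayed lower at 15 h (-1.18 ± 0.23). KIF6, a kinesin-9 of motile cilia, had 30, 12, 10 and 8 footprint counts at the 4 times and was lower at all 3 later times, with a log2 change of -2.43 ± 0.53 at 15 h. KIF6 passed the filter on low counts through its 0 h libraries alone, so falls from 0 h were favoured in advance. KIF9, its family relative, did not pass in RNA, and its footprint call at 15 h (-0.72 ± 0.28, edgeR adjusted p = 0.0192) ended without replicate 4 of 0 h (-0.43) or replicate 1 (-0.60) or 3 of 15 h (-0.65).

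KIF21A, a kinesin-4 that restrains microtubule growth at the cell cortex, had 15.8, 20.1, 17.3 and 11.96 CPM before serum, 24.1, 19.1, 31.8 and 29.2 after 5 h, 44.04, 31.7, 26.5 and 41.4 after 10 h, and 61.98, 49.5, 43.9 and 51.03 after 15 h in RNA. Footprint values were 23.7, 23.6, 30.8 and 19.5 CPM before serum, 28.5, 33.1, 31.3 and 26.2 after 5 h, 54.1, 55.2, 53.4 and 44.9 after 10 h, and 54.8, 57.3, 48.8 and 55.6 after 15 h. It rose in RNA by 10 h (1.14 ± 0.24) and 15 h (1.64 ± 0.24), and its footprints at 10 h and 15 h lay above all libraries of 0 h and 5 h. The small footprint rise at 5 h (0.28 ± 0.11) ended without any of 4 of the 8 libraries, with log2 changes down to 0.16. KIF21B, its relative, had 10 to 27 footprint counts a group and was lower at 10 h alone (-2.02 ± 0.53). KIF21B passed the filter on low counts only because of its 0 h libraries, so this fall was favoured in advance.

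Among the other kinesins as a group, RNA of 4 gave 0 calls at 5 h by edgeR (1 had an unadjusted p under 0.05) and 2 rises, KIF21A and KIF24, at 10 h and at 15 h, where 35.9%, 44.8% and 50.9% of all genes passed. In RNA, KIF24 passed the filter on low counts through its 10 h and 15 h libraries, so its RNA rises were favoured in advance. Footprints of 7 gave 2 rises and 3 falls at each of the 3 times against 0 h, 5 of 7 beside 75.7%, 78.4% and 79.7% of all genes. The falls include KIF6 at each time and KIF21B at 10 h, which passed the filter through their 0 h libraries. The 9 kinesins not tested in either assay had few counts over 16 libraries: beside KIF4B, KIF1A and KIF5A, KIF26B had 41 in RNA and 88 in footprints, KIF26A 21 and 8, KIF19 12 and 22, KIF25 5 and 4, KIF2B 2 and 3, and KIF12 0 and 1. KIF2A was not analysed here.

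Translational efficiency (TE) is the footprint change minus the RNA change, tested as the interaction of assay and time. At 5 h the TE of 3 of 11 mitotic kinesins fell and 0 rose (2.34% of 8736 genes fell and 4.13% rose, 6.47% in all): KIF14 (-2.45 ± 0.45, edgeR adjusted p = 0.000159), KIF4A (-1.29 ± 0.30, 0.005) and KIF20B (-1.51 ± 0.41, 0.02). Their footprints had fallen further than their RNA, as the values per library above show. At 10 h it was higher than in starved cells for KIF15 (1.32 ± 0.33), KIF4A (0.68 ± 0.18) and KIF2C (0.64 ± 0.20), 3 of 11 beside 5.44% of genes that rose and 7.23% that changed. At 15 h it was higher for KIF15 (0.95 ± 0.30), KIF4A (0.79 ± 0.17), KIF22 (0.70 ± 0.17) and KIF2C (0.58 ± 0.19), 4 of 11 beside 7.03%, and 0 fell, beside 3.94%. The median TE change of the 11 was -0.71 at 5 h, 0.46 at 10 h and 0.45 at 15 h, against -0.06, -0.04 and -0.04 over all genes. Of 12 transport kinesins, 1 was called, KIF16B at 10 h (-0.76 ± 0.22, 0.026; 1.8% of genes fell), and 0 were called at 5 h and 15 h, when 4 of 12 had an unadjusted p under 0.05 and DESeq2 called 0 and 1. Of 4 other kinesins edgeR called 0 at each time (1, 0 and 1 had an unadjusted p under 0.05), with KIF24 at -1.49 ± 0.58 at 5 h (adjusted p = 0.128). Medians of transport kinesins were -0.21, -0.35 and -0.34.

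Single libraries decided several of these TE calls. Each call was refitted 16 times, leaving out 1 of its 16 libraries, and the range of log2 changes over the 16 fits is given here in parentheses. This ended the call of KIF2C for 13 libraries at 10 h (0.53 to 0.78) and 11 at 15 h (0.48 to 0.72), of KIF16B for 7 (-0.88 to -0.64), of KIF15 for 6 at 15 h (0.75 to 1.13) and for RNA replicate 1 of 0 h at 10 h (1.12 to 1.49, highest adjusted p = 0.0584 by edgeR), and of KIF20B for 4 (-1.74 to -1.27). KIF14 and KIF4A at 5 h, KIF4A at 15 h and KIF22 at 15 h passed in every such fit and in the other settings tried, and KIF4A at 10 h in every such fit but not in a fit of these groups alone. The fold of footprints over RNA is relative to other genes in each assay and says nothing about absolute rates.

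**Figure D5:**
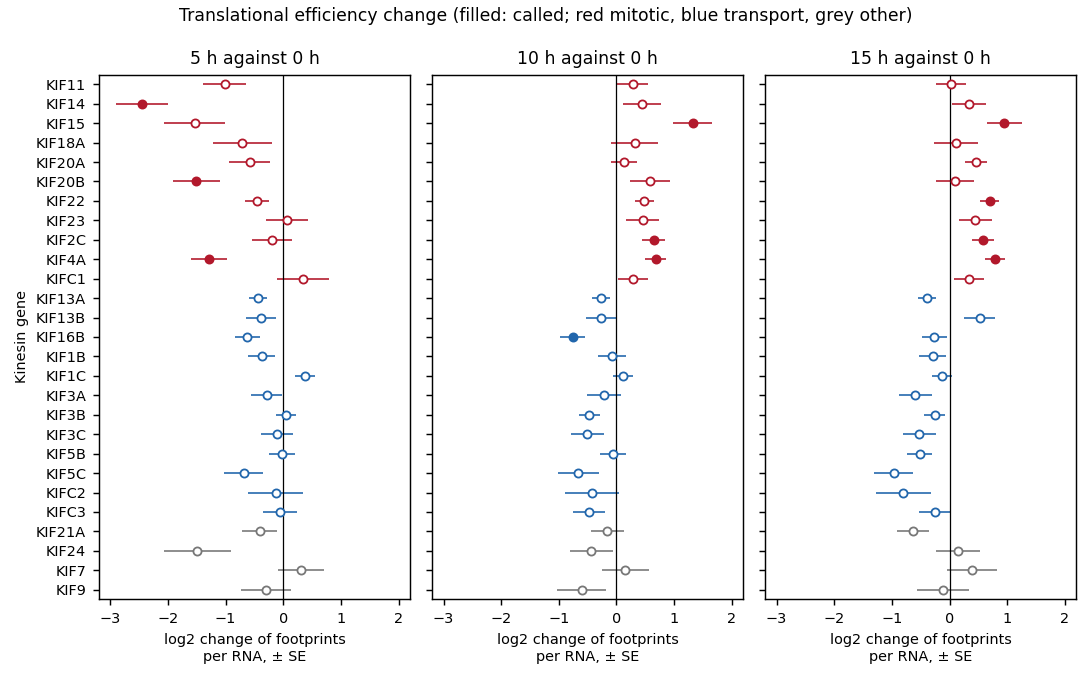
Change of translational efficiency (log2, ± SE from edgeR) at 5, 10 and 15 h against 0 h for the 27 kinesins tested in both assays, mitotic in red, transport in blue and other in grey. Filled points had an adjusted p under 0.05; KIF14, KIF20B and KIF4A lie left of 0 at 5 h, and KIF15, KIF4A, KIF22 and KIF2C right of 0 at 15 h.

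The level of footprints against RNA spanned a wide range among transport kinesins, from -3.54 to 1.23 on the log2 scale at 0 h. For KIF1C, the RNA level was the highest of all transport kinesins per kilobase of coding sequence, 174, 186, 205 and 196 CPM per kb at the 4 times, while its footprints were at 14.95, 21.5, 20.5 and 17.1. Its log2 ratio of footprint to RNA CPM was -3.54, -3.11, -3.32 and -3.52, where the median of 8736 genes was -0.34 at 0 h and -0.23 at 15 h, and at 15 h only 61 genes (0.698%) had a lower ratio. KIFC2 (-2.93 at 0 h) and KIFC3 (-2.59) were also low, with 2.78% and 3.93% of genes below them. The KIFC3 ratio rests on an entry of 340 bases. KIF1B (1.23) and KIF3A (1.21) were high at 0 h, with 92% and 91.8% of genes below them. Whether RNA counts of KIF1C include reads of an overlapping or antisense transcript was not tested, and the labels do not give the strand setting of the counting.

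Ranked per kilobase, the order of the family changed with time. In footprints at 5 h KIF5B led with 125 CPM per kb, followed by KIF3A at 31.3 and KIF1C at 21.5, and the highest mitotic kinesin was KIF23 at 7.49. At 15 h KIF11 led at 245, followed by KIF23 at 212, KIF5B at 169, KIFC1 at 130, KIF2C at 127 and KIF22 at 117. KIFC1 and KIF2C were closer to each other than their SD across libraries, so their order is not fixed by these data. KIFC3 was left out of this ranking because its deposited length of 340 bases is not a multiple of 3.

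Most partners of the mitotic kinesins were lower at 5 h and higher at 15 h. In a list of 20 spindle and cytokinesis genes, 0 rose and 16 fell in RNA at 5 h (19.2% and 16.7% of all genes), 7 rose and 4 fell at 10 h (23.3% and 21.5%), and 19 rose and 1 fell at 15 h (25.4% and 25.4%). In footprints all 20 fell at 5 h (40.5%), 14 rose and 4 fell at 10 h (39.4% and 39%), and 19 rose and 1 fell at 15 h (40.1% and 39.6%). Medians of the log2 change at the 3 times were -1.996, 0.26 and 1.98 in RNA and -2.2, 0.85 and 2.56 in footprints. RACGAP1, which binds KIF23 in centralspindlin, changed by -2.06 ± 0.18 at 5 h and 2.09 ± 0.16 at 15 h in RNA. PRC1, the antiparallel bundler that recruits KIF4A and KIF14, changed by -2.27 ± 0.20 and 2.13 ± 0.17. AURKB, the kinase of the passenger complex that KIF20A carries, changed by -1.62 ± 0.39 and 3.64 ± 0.24. At 10 h, when KIF20A was below starved cells, the complex members differed: AURKB (1.71 ± 0.26) and CDCA8 (0.86 ± 0.23) were higher, BIRC5 was lower (-1.08 ± 0.16) and INCENP did not pass (0.39 ± 0.47). CENPE, a kinetochore kinesin whose symbol falls outside the rule, rose by 3.65 ± 0.11 in footprints at 15 h after a fall of -1.67 ± 0.17 at 5 h. NUMA1, which gathers microtubules at spindle poles, was the partner that stayed low, at -1.35 ± 0.31 in RNA and -0.89 ± 0.05 in footprints at 15 h. In TE at 5 h, 1 of the 20 partners fell and 0 rose (2.34% and 4.13% of genes). It was CIT (-2.71 ± 0.34), the citron kinase that binds KIF14. The TE of KIF14 fell too, on 54 RNA and 77 footprint counts at 5 h, as did that of KIF4A and KIF20B. A link between these falls was not tested. PRC1 was not called in TE at 5 h (-0.29 ± 0.28). At 10 h the TE of 5 partners rose and 0 fell (5.44% and 1.8% of genes). At 15 h 4 rose and 0 fell (7.03% and 3.94%).

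Adaptors and regulators of transport kinesins changed in both directions. Of 15 tested in RNA (20 listed), 4 rose and 2 fell at 5 h, 3 rose and 4 fell at 10 h and 3 rose and 4 fell at 15 h, where 35.9%, 44.8% and 50.9% of all genes passed. In footprints 9 of 18 rose and 4 fell at 5 h (35.2% and 40.5% of genes), and 6 rose and 9 fell at 15 h (40.1% and 39.6%). KIFBP, which binds kinesin motor domains and blocks them, rose in RNA at 15 h (1.49 ± 0.20) and in footprints (1.52 ± 0.07). KLC2, a kinesin-1 light chain, rose in footprints at 5 h (1.41 ± 0.08), and KLC4, another, fell (-1.61 ± 0.25). TRAK1, which links kinesin-1 to mitochondria, fell in footprints at 15 h (-0.82 ± 0.14), where TRAK2 rose (0.72 ± 0.13). In RNA TRAK2 rose too (0.87 ± 0.17). In TE at 15 h, 1 of 15 tested fell, TRAK1 (-1.54 ± 0.27), and 0 rose (3.94% and 7.03% of genes). The TE of TRAK1 fell further than its footprints, so its RNA estimate was upward, in the direction of TRAK2. TRAK2 was not called in TE (-0.29 ± 0.21). Of 20 tested genes of dynein and dynactin, a minus-end motor complex, 6 rose and 3 fell in RNA at 5 h (35.9% of all genes passed) and 8 rose and 4 fell at 15 h (50.9%). Its heavy chain DYNC1H1 fell in RNA at 5 h (-1.06 ± 0.31) and in footprints (-0.67 ± 0.05), and NDEL1, a dynein regulator, rose (1.79 ± 0.27 in RNA).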

How the data were processed

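RNA-seq and footprint libraries (QIAseq miRNA library kit, per the labels' protocols) were aligned with STAR 2.5.4a to GRCh38 and counted with featureCounts 1.5.1, per the submitters' processing notes. The authors deposited whole-number counts per gene and a gene length, read here as coding length. Neither notes nor labels give the annotation release, strand setting or handling of molecular identifiers, so these are not given in the sources used here. Each assay was fitted over its 16 libraries with edgeR 4.0.16 (R 4.3.3): TMM scaling, filterByExpr, robust quasi-likelihood test, time as the factor, and Benjamini-Hochberg adjustment over all 8775 (RNA) or 10959 (footprint) genes, with calls at an adjusted p under 0.05. TE was the interaction of assay and time over 32 libraries and 8736 genes. Each log2 change stands with its SE from the test's F value. The fit was also run on counts simulated from its own estimates of spread, without structure shared by replicate numbers. No result here rests on that run. P-values set a difference between times against the spread between biological replicates, estimated over all libraries of a fit and not within 1 group. Members with values per library were chosen by role and size of change, and the members and lists were chosen with earlier results of these data known. Alternatives were RLE scaling, no filter beyond a total of 10 counts, DESeq2 1.42.0, a fit of the groups compared alone, a replicate block and leaving out each library. Promoters came from RefSeq (GRCh38.p14).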

Additional observations from a re-analysis of the deposited data

Results flagged for a closer look

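In groups of 4 libraries, a value was singled out when its gap to the nearest other value exceeded the critical share of the group's range in Dixon's test. Over 17 kinesins and both assays, 8 of 136 groups held such a value, and chance gives about 1 in 20. In RNA they were KIF11 in replicate 1 of 0 h (105.4 CPM, others 50.54 to 58.29), KIFC1 in replicate 2 of 15 h (260.7, others 211.4 to 215.3), KIF4A in replicate 2 of 15 h (203.7, others 183.8 to 185.9) and KIF16B in replicate 2 of 5 h (43.12, others 32.78 to 34.15). In footprints they were KIF20A in replicate 1 of 5 h (7.516, others 3.522 to 3.975), KIF22 in replicate 1 of 5 h (11.87, others 9.888 to 10.14), KIF7 in replicate 2 of 5 h (13.58, others 10 to 10.27) and, as the lowest value, KIF4A in replicate 2 of 0 h (23.37, others 31.36 to 32.64). Without RNA replicate 1 of 0 h, KIF11 stayed called in all its RNA comparisons with 0 h.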

How the results depend on the processing

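Of 195 calls of single kinesins, 21 were lost under at least 1 alternative and 0 reversed, over 2619 refitted values. Of the calls, leaving out some library ended 5 of 62 in RNA, 9 of 122 in footprints and 6 of 11 in TE. Numbers of called mitotic kinesins in RNA and footprints stayed within 1.5 times their main value under every alternative. Replicate numbers were not taken to pair libraries, since not every same-numbered pair correlated above 0.1 in its deviations from the group means: 17 of 24 did in RNA (median 0.169, other pairs -0.068) and 1 of 24 in footprints. In RNA every pair of replicates 1 (0.14 or more) and 2 (0.242 or more) did, and 11 of 16 libraries of each assay correlated best with their own number, a hint from the data and not the design. With a replicate block, called transport kinesins went from 3 to 5 in RNA at 10 h against 0 h, from 0 to 1 in RNA at 10 h against 5 h, and in TE from 0 to 1 at 5 h, from 1 to 2 at 10 h and from 0 to 2 at 15 h. The block raised calls over all genes too. In RNA at 10 h against 0 h, 2046 rises and 1883 falls became 2344 and 2310 of 8775 genes. At 10 h against 5 h, 887 and 839 became 1178 and 1275. In TE (8736 genes), 361 rises and 204 falls became 585 and 463 at 5 h. They went from 475 and 157 to 670 and 348 at 10 h, and from 614 and 344 to 874 and 668 at 15 h. The block also took called mitotic kinesins in TE at 5 h from 3 to 5, as did DESeq2, which called 1 transport kinesin in TE at 15 h. Over all genes DESeq2 gave 498 rises and 291 falls in TE at 5 h, and 806 and 473 at 15 h. Called mitotic kinesins in TE at 10 h fell from 3 to 1 in a fit of the groups compared alone, and called transport kinesins there went from 1 to 0 in that fit and without the filter. Over all genes the fit of these groups alone gave 424 rises and 84 falls of 8133. Without the filter there were 509 and 112 of 11930. Leaving out 1 library gave 0 to 1 transport kinesins in RNA at 15 h against 10 h. In TE at 5, 10 and 15 h it gave 2 to 5, 1 to 4 and 2 to 5 mitotic and 0 to 1, 0 to 1 and 0 to 3 transport kinesins. The causes were not tested. RNA libraries held fewer counts than footprint libraries, and low members such as KIF5C rested on 50 or fewer RNA counts a group.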
